A study of Mus musculus with 6 samples.

Results

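The 10 genes described here are Trp53, which encodes the transcription factor p53, 4 genes of its feedback loop (Mdm2, Mdm4, Ppm1d and Ccng1) and 5 of its targets linked to cell cycle arrest (Cdkn1a, Btg2, Plk2, Gdf15 and Phlda3). They were taken by symbol from a table of 16982 genes, all 10 were found, and all 10 were among the 13386 genes that passed a filter on low counts. RNA-seq was read in 3 WT and 3 Rnf20-/- libraries (KO), each harvested on day 3 of reprogramming of mouse embryonic fibroblasts (MEF) by retroviruses for OCT4, SOX2, C-MYC and KLF4. The labels give the strain background C57BL/6 and list all 6 cultures as untreated. By the study's methods the KO cells come from Rnf20 Flox/Flox embryos that carry Tamoxifen-cre, a Cre that is expressed in all tissues and becomes active with 4-OH tamoxifen. The sources used here do not say whether WT cultures carried the same alleles or received the drug, so an effect of the drug and of the deletion cannot be told apart. The methods also move infected MEF onto feeder layers of MEF growth-arrested with mitomycin C, a DNA crosslinker, and do not say whether feeder RNA was part of these libraries.

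RNF20 is an E3 ligase that attaches ubiquitin to histone H2B. p53 is kept low by MDM2, an E3 ligase that marks it for degradation, and by MDM4, a relative of MDM2 that binds and restrains p53. On DNA damage or oncogene stress p53 protein is stabilised and activates genes that arrest the cell cycle, among them Cdkn1a, which encodes the CDK inhibitor p21. Several targets act back on it: MDM2 degrades p53, and PPM1D (WIP1) is a phosphatase that switches off the damage kinases and p53 itself. Because p53 is governed mainly through its protein, Trp53 RNA and the RNA of its targets can move apart. In fibroblasts p53 and p21 are known as barriers to reprogramming.

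The promoters are shown because the 10 genes were chosen as p53, its feedback loop and its targets, and the element that p53 binds is known. Through this choice, the share of the 10 with the element is no test of p53. Its activity was not measured here, and its part in the changes was not tested. RefSeq promoter windows (GRCm38.p6, 250 bases before to 50 after each start) matched all 10 genes, in 13 windows. They were searched for the p53 consensus element, a pair of abutting motifs that reads the same on both strands, with at most 3 mismatches outside the fixed C and G of each motif. It was present in 1.63% of 27025 genes and in 3 of the 10. With at most 1 mismatch it was present in 0.0814% of all genes and in 2 of the 10, Cdkn1a and Ccng1. The element is in capitals in the stretches below, which are given 5′ to 3′ on the strand of the gene.
Cdkn1a (chr17:29090913-29090962, plus strand, 1 mismatch): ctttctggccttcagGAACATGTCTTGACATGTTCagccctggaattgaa
Ccng1 (chr11:40755447-40755496, minus strand, 1 mismatch): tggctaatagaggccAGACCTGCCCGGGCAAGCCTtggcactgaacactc
Trp53 (chr11:69580269-69580318, plus strand, 3 mismatches): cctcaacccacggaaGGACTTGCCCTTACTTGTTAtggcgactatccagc
Counted from the start of the transcript, with negative positions upstream, the element begins at -51 in Cdkn1a, -195 in Ccng1 and -75 in Trp53. For Cdkn1a this is the upstream of its 2 starts. The window of the second, downstream start held none, and which start these cells used was not tested. The windows of Mdm2, Mdm4, Ppm1d, Btg2, Plk2, Gdf15 and Phlda3 held none within these limits, which says nothing of elements in introns or farther upstream.

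Rnf20, the targeted gene, had 107, 107 and 106 CPM (counts scaled to a common library size by TMM) in WT1 to WT3 and 18.7, 18.5 and 16.4 in KO1 to KO3. Total counts were 20545442 to 20672939 in WT and 21172325 to 21746898 in KO, and 3 counts equal 0.142 to 0.143 CPM. KO3 stood apart, with a chi-square statistic per gene of 92.4 and 101 against KO1 and KO2, compared with 6.04 to 8.92 within the other pairs of one genotype. Its 6 macrophage markers, all detected in every library, summed to 242 CPM against 44.5 to 89.2 in the other libraries, and its 5 epithelial markers to 3.67 against 24.3 to 43.2. Of the 242 CPM, 159 were Lyz2. Adgre1 (31.9), Cd14 (25.4), Csf1r (12.2) and Ptprc (4.91) were, like Lyz2, highest in KO3. Only Cd68 was not, as its level in KO3 (8.57) lay below WT2 (10.5). The epithelial sum is mostly Krt8 and Cdh1. Krt8 (0.714), Cdh1 (1.81), Krt18 (0.333) and Epcam (0.286) were lowest in KO3, while Cdh1 was highest in KO1 (13.4). Krt5 in KO3 (0.524) lay within the WT range (0.190 to 0.712). The 6 fibroblast markers summed to 21249 to 22942 CPM in WT and to 21110, 25655 and 15428 in KO1 to KO3. That sum is mostly Col1a1 and Col1a2. Thy1 was lower in every KO library (78.4 to 88.8 CPM) than in WT (157 to 192). So was Pdgfra (49.9 to 108 against 181 to 222). Vim was higher in every KO library (3448 to 3654 against 2655 to 3058), and Dcn overlapped. Y-linked genes were at or near 0 in KO1 and KO3 and summed to 227 to 266 CPM in KO2 and all WT libraries. The fold changes of the 10 genes and of the named genes of the pathway lists, and the counts and medians of those lists, are therefore also given without KO3. The part of these differences in the results was not tested. In bulk RNA, more cells with high expression and more RNA per cell cannot be told apart, and since nothing states that the cultures came from separate embryos, p-values measure only the spread between these libraries.

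Knockout of Rnf20 was accompanied by higher RNA of Mdm2, Ccng1 and all 5 arrest targets, lower RNA of Mdm4, and no called change of Trp53 or Ppm1d. At an adjusted p under 0.01 (edgeR's quasi-likelihood test, Benjamini-Hochberg over 13386 genes) 7 of the 10 genes were higher in KO, against 4.98% of all genes tested. At the same threshold 1 of the 10 was lower, against 4.89%. The study's full thresholds add a change over 2-fold and a mean FPKM (fragments scaled by transcript length and library size) over 1. They called 6 of the 10, all higher, and called 1.5% of all genes higher. The KO libraries lay wholly above the WT libraries in 7 genes (26.6% of all genes), wholly below in 2 (28.2%) and overlapped them in 1. The median log2 fold change of the 10 was 1.13, beside -0.00032 over all genes tested. The calls at 0.01 depend on the libraries used, over the whole table as for the 10. Without WT1, WT2 or WT3 the same test called 0 of the 10 and only 4, 2 and 1 of all genes. Without KO1 it called 3 of the 10 (Mdm2, Ccng1 and Cdkn1a) and 1.1% of all genes, and without KO2 the same 3 and 0.649%. At an adjusted p under 0.05 it called 8 of the 10 with all libraries (33% of all genes) and 8 in each of those 5 fits, where 10.3 to 27.7% of all genes passed. Without KO3 the test called 7 of the 10 higher (16.4% of all genes) and 1 lower (16.7%). DESeq2 with all libraries also called 7 higher (13.8%) and 1 lower (13.1%).

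**Figure D1:**
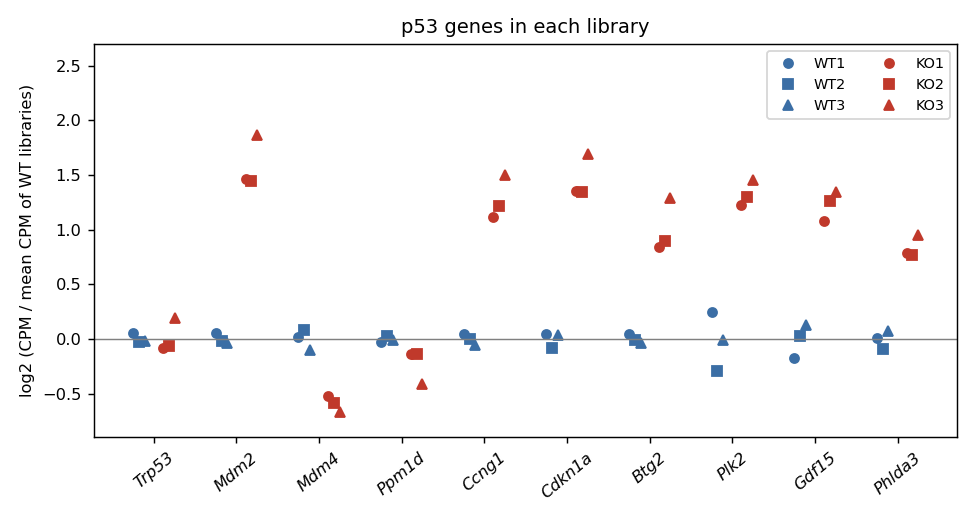
Points give log2 of the CPM of each library over the mean CPM of the 3 WT libraries (vertical axis), for each of the 10 genes (horizontal axis), with WT in blue and KO in red and 1 symbol for each replicate number. For the 7 genes called higher, the KO libraries lie between 0.773 (Phlda3, KO2) and 1.87 (Mdm2, KO3), and Mdm4 and Ppm1d lie below the WT libraries.

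Trp53 (ENSMUSG00000059552, GRCm38 chromosome 11, 69580359 to 69591873, plus strand) had 150, 142 and 143 CPM in WT1 to WT3 and 137, 139 and 166 in KO1 to KO3. KO1 and KO2 were below every WT library and KO3 above every one, so the genotypes overlapped. The log2 fold change was 0.019 ± 0.0924 (SE, edgeR's adjusted p = 0.888). It was -0.074 without KO3 and -0.042 with scaling by library size only, so no direction can be read. The 3 genes whose centred log2 CPM over the 6 libraries was nearest to that of Trp53 were Acp6, Znhit2 and Tspan31, with root mean square differences of 0.0216, 0.0254 and 0.0303. Like Trp53, they had small log2 fold changes whose sign depended on KO3: 0.025, 0.033 and 0.044 with it, and -0.077, -0.062 and -0.047 without it.

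In the feedback loop the 2 MDM genes moved in opposite directions. Mdm2 (chromosome 10, 117688875 to 117710758, minus strand) had 133, 126 and 125 CPM in WT1 to WT3 and 352, 350 and 467 in KO1 to KO3. Every KO library was at least 2.73 times the WT mean. The log2 fold change was 1.60 ± 0.127 (SE, edgeR's adjusted p = 0.00178), the largest of the 10, and 1.46 without KO3. Mdm4 (chromosome 1, 132959484 to 133030561, minus strand) had 252, 264 and 233 CPM in WT1 to WT3 and 174, 166 and 157 in KO1 to KO3. All KO libraries were lower, and KO3 was the lowest. The log2 fold change was -0.59 ± 0.0780 (SE, edgeR's adjusted p = 0.00474), or -0.55 without KO3.

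Ppm1d (chromosome 11, 85311244 to 85347066, plus strand) had 27.0, 28.0 and 27.2 CPM in WT1 to WT3 and 24.9, 24.9 and 20.6 in KO1 to KO3. The KO libraries were all lower, but the log2 fold change of -0.22 ± 0.10 (SE, edgeR's adjusted p = 0.129) did not pass the test, and it was -0.14 without KO3. Ccng1 (chromosome 11, 40748552 to 40755311, minus strand), which encodes cyclin G1, a partner of the phosphatase PP2A in the control of MDM2, had 499, 483 and 464 CPM in WT1 to WT3. In KO1 to KO3 it had 1045, 1118 and 1364 CPM. The genotypes were far apart, with a log2 fold change of 1.29 ± 0.115 (SE, edgeR's adjusted p = 0.00228), or 1.17 without KO3.

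Of the arrest targets, Cdkn1a (ENSMUSG00000023067, chromosome 17, 29090976 to 29100727, plus strand) had the highest level. It had 479, 439 and 477 CPM in WT1 to WT3 and 1186, 1180 and 1508 in KO1 to KO3. KO1 and KO2 were almost equal and KO3 was 1.27 times their mean. The log2 fold change was 1.47 ± 0.119 (SE, edgeR's adjusted p = 0.00182), a rise of 2.78-fold, and 1.35 without KO3. An unnamed annotated gene on the opposite strand overlaps 273 bases of its exons, and the sources used here do not say whether reads were counted by strand. The genes with the nearest pattern were Timp3, Thbs1 and Mdm2, with root mean square differences of 0.0740, 0.0760 and 0.0776 in log2 CPM over the 6 libraries. Timp3 encodes a matrix protease inhibitor and Thbs1 thrombospondin 1, and their log2 fold changes were 1.56 and 1.58, or 1.43 and 1.504 without KO3.

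Btg2 (chromosome 1, 134075170 to 134079120, minus strand), an antiproliferative partner of the CCR4-NOT deadenylase, had 111, 107 and 105 CPM in WT1 to WT3 and 194, 202 and 264 in KO1 to KO3. KO3 was the farthest from WT, and the log2 fold change of 1.03 ± 0.126 (SE, edgeR's adjusted p = 0.00394) was 0.87 without it, under the 2-fold limit. Plk2 (chromosome 13, 110395046 to 110400844, plus strand), a polo-like kinase, varied most among WT libraries, with 71.8, 49.2 and 60.2 CPM. It had 141, 149 and 166 CPM in KO1 to KO3, all above WT, a log2 fold change of 1.33 ± 0.146 (SE, edgeR's adjusted p = 0.00330), or 1.27 without KO3.

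Gdf15 (chromosome 8, 70629393 to 70632456, minus strand), a secreted stress cytokine of the TGF-beta superfamily, had the lowest FPKM of the 10 in WT. Its CPM in WT1 to WT3 were 4.66, 5.36 and 5.74. These rest on 98, 113 and 121 counts. It had 11.1, 12.6 and 13.4 CPM in KO1 to KO3, a log2 fold change of 1.23 ± 0.143 (SE, edgeR's adjusted p = 0.00358), or 1.17 without KO3. Phlda3 (chromosome 1, 135766119 to 135769136, plus strand), whose protein competes with the kinase AKT for membrane lipids, had 189, 176 and 198 CPM in WT1 to WT3 and 324, 321 and 362 in KO1 to KO3. All KO libraries were higher. Its log2 fold change of 0.84 ± 0.0828 (SE, edgeR's adjusted p = 0.00287) was the smallest of the 7 called rises and was 0.78 without KO3.

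**Figure D2:**
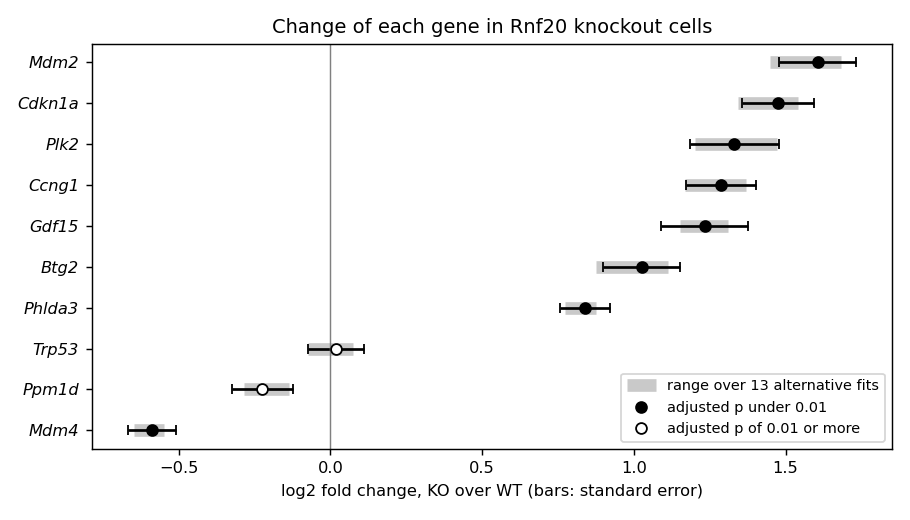
Points give the log2 fold change of KO over WT (horizontal axis) for each gene (vertical axis) with its standard error, filled where the adjusted p was under 0.01, and grey bars give the range over 13 alternative fits. The 7 rises stay at or above 0.773, Mdm4 stays between -0.65 and -0.55, and the bar of Trp53 crosses 0.

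KO3 had the highest CPM of the 3 KO libraries in Trp53 and in all 7 genes called higher, and the lowest in Mdm4 and Ppm1d. It was 1.33 times the mean of KO1 and KO2 for Mdm2 and Btg2 and 1.12 times for Phlda3. In KO2, the KO library with Y-linked transcripts, the ratio to the WT mean was 2.73 for Mdm2, 2.54 for Cdkn1a, 2.32 for Ccng1 and 1.71 for Phlda3. A fit with a term for Y-linked transcripts, in which KO2 alone carries the comparison, called 0 of the 10 and 1 of all genes at an adjusted p under 0.01. In that fit Mdm2, Ccng1 and Cdkn1a were under 0.05, as were 0.814% of all genes, and 8 of the 10 had an unadjusted p under 0.05, as had 24.5%. Together the 10 genes took 0.185 to 0.196% of all counts in WT and 0.355 to 0.439% in KO.

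Levels of different genes were compared per length, by the deposited FPKM. In WT the order was Cdkn1a, Ccng1, Phlda3, Trp53, Btg2, Mdm2, Mdm4, Plk2, Ppm1d and Gdf15, from a mean of 330 to 5.30 FPKM. By FPKM, the libraries of neighbours in this order did not overlap, except those of Mdm2 (43.5 to 46.1 FPKM) and Mdm4 (36.8 to 43.7). In KO the order was Cdkn1a (807), Ccng1 (404), Phlda3 (273), Mdm2 (136), Btg2 (102), Trp53 (91.5), Plk2 (52.0), Mdm4 (26.1), Gdf15 (12.6) and Ppm1d (9.13 FPKM). There, by FPKM, only Btg2 and Trp53 overlapped. Part of the order depends on the transcript length used. With CPM per kilobase of the deposited gene lengths, the WT mean of Mdm2 (40.7) was above that of Btg2 (39.3). That of Plk2 (21.6) was above that of Mdm4 (16.3). On this scale the WT libraries of Mdm2 and Btg2 overlapped, as did those of Ccng1 and Phlda3. In KO, Ppm1d and Gdf15 were in reverse order on this scale, and their libraries overlapped. Among the 12633 genes with FPKM, Cdkn1a ranked 212 in WT and 111 in KO, and Mdm2 moved from 1872 to 584.

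The ratio of Mdm2 to Mdm4 FPKM was 1.18, 0.998 and 1.18 in WT1 to WT3 and 4.41, 4.65 and 6.88 in KO1 to KO3. It depends on the transcript length used: with CPM per kilobase of the deposited gene lengths, 15272 bases for Mdm4, it was 2.33 to 2.61 in WT and 9.84 to 14.4 in KO. On both scales all KO libraries were above all WT libraries. The ratio of Cdkn1a to Trp53 FPKM was 3.41 to 3.73 in WT and 8.71 to 8.94 in KO, with KO3 at 8.94. By this ratio KO3 stood close to KO1 and KO2.

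**Figure D3:**
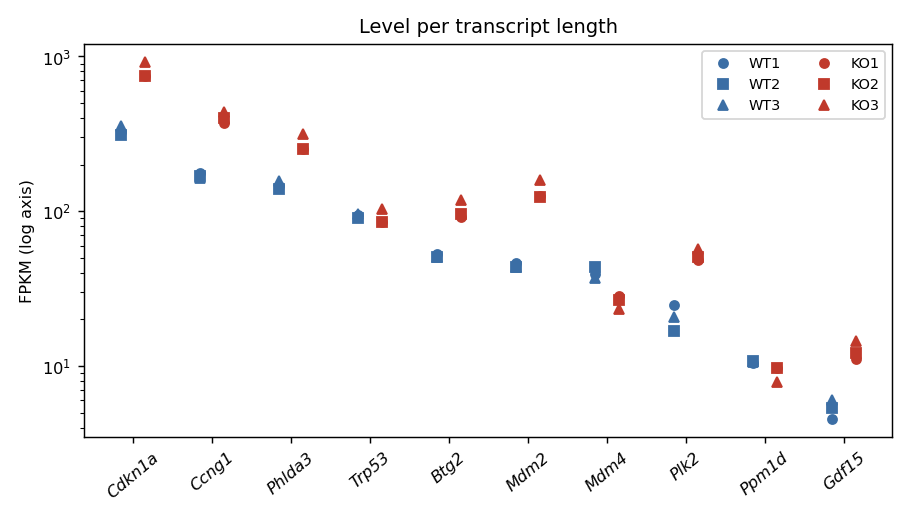
Points give FPKM (vertical log axis) in each WT (blue) and KO (red) library for the 10 genes, ordered by their mean in WT. By FPKM, Mdm2 lies below Trp53 and Btg2 in WT and above both in KO, and Cdkn1a is the highest in all 6 libraries. With CPM per kilobase of the deposited gene lengths, Mdm2 was above Btg2 in WT too (means of 40.7 and 39.3).

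The genes differ in genomic length. The 7 that were higher in KO span 3.02 kb (Phlda3) to 21.88 kb (Mdm2), and the 2 whose KO libraries were all lower span 35.82 kb (Ppm1d) and 71.08 kb (Mdm4). Trp53 spans 11.52 kb. Of these 2, Ppm1d was not called. This is a description of 10 genes chosen with earlier results known, and span was not compared with fold change over all genes tested.

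Other genes of the pathway were read as lists, each with its median beside that of all genes tested, which was -0.00032. Over all genes tested, edgeR called 4.98% higher and 4.89% lower at 0.01, 22.5% and 23% had an unadjusted p under 0.05 in these directions, and DESeq2 called 13.8% and 13.1%. Without KO3 edgeR called 16.4% and 16.7% and the median was -0.0068. Of 15 targets that promote cell death, 6 were higher and 0 lower at an adjusted p under 0.01 (edgeR's quasi-likelihood test), 11 and 0 had an unadjusted p under 0.05, and DESeq2 called 9 and 0. Their median log2 fold change was 0.60. Without KO3 edgeR called 11 higher and 0 lower, with a median of 0.57. All 15 log2 fold changes were above 0 with KO3. Without it Dram1 went from 0.74 to -0.23 and Siva1 from 0.12 to -0.020. Perp, which encodes a membrane protein of desmosomes, had a log2 fold change of 1.42 (adjusted p = 0.00153) and Trp53inp1, a p53 cofactor, of 0.94 (adjusted p = 0.00185), or 1.44 and 0.98 without KO3. Of 11 targets in repair and stress tolerance, 1 was higher and 0 lower by edgeR, 4 and 3 had an unadjusted p under 0.05, and DESeq2 called 3 and 1. Their median was 0.049. The share called was near that of all genes, and without KO3 edgeR called 2 and 1, with a median of 0.087. The called gene was Sesn2, which encodes a stress sensor upstream of mTORC1 (0.57, adjusted p = 0.00684). Polk, a translesion polymerase, had 0.71 (adjusted p = 0.0141), Sesn1 -0.71 (adjusted p = 0.0210) and Fdxr -0.38 (adjusted p = 0.0466), all from edgeR. Without KO3 these 4 genes had 0.61, 0.82, -0.54 and -0.37.

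Of 9 other genes linked to arrest, 1 was called higher and 1 lower by edgeR at 0.01, 6 and 2 had an unadjusted p under 0.05, and DESeq2 called 4 and 2. Their median log2 fold change was 0.39, and without KO3 edgeR called 5 and 2, with a median of 0.37. The called genes are not known chiefly as p53 arrest targets. Ccnd1, higher by 1.36 (adjusted p = 0.00178 by edgeR), encodes cyclin D1, which drives G1, and Cdkn1b, with -0.98 (adjusted p = 0.00340), encodes p27, a relative of p21 that is not a classical p53 target. E2f7, a repressor of E2F genes, had -1.53 (adjusted p = 0.0149) and Fbxw7, a ubiquitin ligase subunit, 0.39 (adjusted p = 0.0117). Without KO3 the log2 fold changes were 1.35 for Ccnd1, -0.88 for Cdkn1b, -1.23 for E2f7 and 0.37 for Fbxw7. Of 20 regulators of p53, 0 were higher and 1 lower by edgeR, 4 and 6 had an unadjusted p under 0.05, and DESeq2 called 1 and 5. The share called by edgeR was near that of all genes. Their median was -0.21, but -0.0026 without KO3, where edgeR called 2 and 6. The called gene was Chek2, a kinase of the DNA damage response (-0.59, adjusted p = 0.00969). The histone methyltransferase gene Kmt5a had -0.32 (adjusted p = 0.0116) and Ppp1r13l, which encodes an inhibitor of p53, 0.38 (adjusted p = 0.0509). Without KO3 these 3 genes had -0.55, -0.34 and 0.31.

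Of 21 genes known to be repressed through p21 and the DREAM complex, a repressor of cell cycle genes, 0 were higher and 7 lower by edgeR's quasi-likelihood test at 0.01. At an unadjusted p under 0.05 these numbers were 0 and 20, and DESeq2 called 0 and 20. Their median log2 fold change was -1.61. Without KO3 edgeR called 1 higher (Chek1) and 20 lower, with a median of -1.25. Ccnb2 (cyclin B2) had -2.30 (adjusted p = 0.00326) and Cks1b, a CDK subunit, -0.70 (adjusted p = 0.00387), while Chek1 alone was positive, with 0.16 (adjusted p = 0.302). Without KO3 these 3 genes had -2.04, -0.63 and 0.27. The summed CPM of the list was 1668 to 1736 in WT and 955, 882 and 509 in KO1 to KO3. KO3, highest for the 7 genes called higher, was lowest for this list. The study itself names Cdk1 and Aurkb among cell cycle genes lowered in the knockout. The part of p21 in the lower levels of this list was not tested.

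Paralogs of the 10 genes were read to see whether their relatives moved too. Of 13 tested, 1 was called higher and 1 lower by edgeR at 0.01, 4 and 3 had an unadjusted p under 0.05, and DESeq2 called 2 and 3. Their median log2 fold change was 0.13, and without KO3 edgeR called 2 and 4, with a median of 0.17. Phlda1, a relative of Phlda3, had 1.48 (adjusted p = 0.00954 by edgeR) and Btg3 0.63 (adjusted p = 0.0165). Cdkn1b, given above, was the gene called lower, and Plk4 had -1.53 (adjusted p = 0.0110) where its relative Plk2 had 1.33. Without KO3 Phlda1 had 1.13, Btg3 0.50 and Plk4 -1.24. Cdkn1b, Plk1, Plk4 and Chek1 each stand in 2 of the lists.

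**Figure D4:**
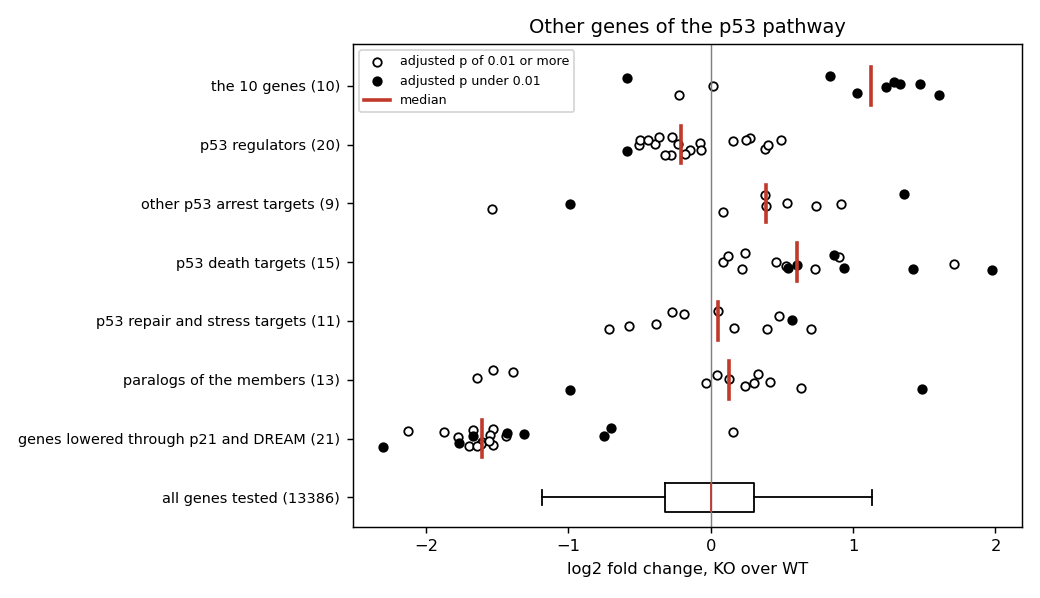
Points give the log2 fold change of KO over WT (horizontal axis) of each gene of a list (vertical axis, number tested in brackets), filled where the adjusted p was under 0.01, with the list median as a red line. The box shows the quartiles of all 13386 genes tested with whiskers at the 5th and 95th percentiles. The death targets all lie above 0, Siva1 and Dram1 only with KO3 included. The list repressed through p21 and DREAM lies below 0 apart from Chek1.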

How the data were processed

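mRNA libraries (TruSeq Stranded kit, paired-end) were aligned by the authors to GRCm38/mm10; the submitters' processing notes name HISAT2 2.1.0 and Cufflinks 2.1.1. The authors deposited raw counts per gene with gene lengths, and FPKM for 12633 genes. The counting program and its strand setting are not given in the sources used here. The deposited fold changes and FDR of the authors' own comparison were not used. With R 4.3.3 and edgeR 4.0.16, counts were filtered with filterByExpr, normalized by TMM and compared (KO against WT, no covariates) by the quasi-likelihood test with Benjamini-Hochberg adjustment. SE is the size of each log2 change over the root of its F statistic. Patterns were compared on log2 CPM with a prior count of 2.

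Genes were called at an adjusted p under 0.01, the FDR of the study's methods. The 10 genes and the lists were chosen with earlier results of these data known. Named are Rnf20, the 10 genes, the 3 nearest patterns to Trp53 and Cdkn1a, and at most 2 genes of lowest adjusted p in each direction of each list. Siva1 and Dram1 are named because their sign depended on KO3, and some cell type markers because they made up most of their sum or differed from it. List genes outside the table were not analysed here. A gene that the rule names among the regulators is not reported here. Positions come from GENCODE M21. Tested on simulated counts of 13249 genes, the test called 42.1% of 197 genes given a log2 change of 1, with 1 false call, and DESeq2 1.42.0 called 76.1% with 27. Only 200 genes were changed there, and no library was made to stand apart as KO3 does. These rates therefore need not hold in the data.

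The same replicate numbers in both genotypes gave no sign of pairing: deviations from the genotype means correlated by -0.066, 0.037 and 0.011. In groups of 3, with KO3 apart, such values cannot exclude that libraries of one number shared a batch. Alternatives were other normalizations and filters, DESeq2, a replicate block, a term for Y-linked transcripts, an adjusted p under 0.05 and leaving out each library. Groups of 3 were not tested for outlying samples.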

Additional observations from a re-analysis of the deposited data

How the results depend on the processing

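Direction held in the 13 alternative fits for all 10 genes except Trp53, whose log2 fold change was -0.042 with scaling by library size only and -0.068 with a term for Y-linked transcripts and -0.074 without KO3. Calls at an adjusted p under 0.01 were less stable. RLE size factors, either filter choice, library-size scaling and DESeq2 each called 8 of the 10 genes. Of all genes, DESeq2 called 26.9% and the other settings 7.22 to 10.3%. Scaling by library size only moved the median of all genes to -0.060 and the calls over all genes from 667 higher and 655 lower to 510 and 858, and gave 3 regulators, while fitting without a count filter gave 0 regulators. DESeq2, with 1842 and 1755 calls over all genes, gave 6 regulators, 6 other arrest genes, 4 repair genes, 5 paralogs and 20 genes repressed through p21 and DREAM. At an adjusted p under 0.05 in edgeR these counts were 6, 8, 5, 7 and 20, where 33% of all genes passed.

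The replicate block, used although the numbers gave no sign of pairing, called 0 genes of the whole table at 0.01, hence 0 of the 10 and 0 of every list. The 8 genes called without it had edgeR adjusted p of 0.0204 to 0.0237 with it, where 21.5% of all genes were under 0.05. With it 8 of the 10 had an unadjusted p under 0.05, as had 41.5% of all genes. Under the block the log2 fold changes of those 8 genes were 1.59 for Mdm2, -0.59 for Mdm4, 1.28 for Ccng1, 1.47 for Cdkn1a, 1.01 for Btg2, 1.34 for Plk2, 1.23 for Gdf15 and 0.84 for Phlda3. The term for Y-linked transcripts left 1 gene of the table called, 0 of the 10 and 0 of every list, with adjusted p of 0.0447 to 0.0805 for the same 8 genes. It gave 1.45 for Mdm2, -0.59 for Mdm4, 1.21 for Ccng1, 1.34 for Cdkn1a, 0.90 for Btg2, 1.30 for Plk2, 1.26 for Gdf15 and 0.77 for Phlda3.

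Over the fits leaving out 1 library, the genes called higher ranged from 0 to 7, those called lower from 0 to 1, and those passing the study's thresholds from 0 to 5. The lowest values came without a WT library and the highest without KO3. Of all genes tested, 0.00736 to 0.0294% were called without a WT library and 33.2% without KO3. Calls ranged from 0 to 8 regulators, 0 to 7 other arrest genes, 0 to 11 death genes, 0 to 3 repair genes, 0 to 6 paralogs and 0 to 21 of the list repressed through p21 and DREAM, of which 20 were lower and 1 higher without KO3. Log2 fold changes ranged from -0.074 to 0.073 for Trp53, 1.46 to 1.68 for Mdm2, -0.64 to -0.55 for Mdm4, 1.17 to 1.37 for Ccng1 and 1.35 to 1.54 for Cdkn1a. They ranged from 0.87 to 1.11 for Btg2, 1.20 to 1.47 for Plk2, 1.15 to 1.31 for Gdf15 and 0.78 to 0.87 for Phlda3. The cause of the lost calls was not tested.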
